A study of Mus musculus with 22 samples.

Results

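The miR-106b/miR-93/miR-25 cluster is a group of 3 microRNA (miRNA) hairpins that lie one after the other inside the mouse gene Mcm7. Its members mmu-miR-106b-5p, mmu-miR-93-5p and mmu-miR-25-3p were chosen by name, and 3 of 3 were found among the 1247 miRNAs of the array and among the 295 that were tested. They were measured in primary hepatocytes of C57Bl6 mice on 22 single-colour Agilent mouse miRNA arrays. The cells received either 10 µM or 50 µM cyclosporin A (CsA), an immunosuppressant that blocks calcineurin and can harm hepatocytes, or the solvent alone (0.5% DMSO), for 24 h or 48 h. As the array files are named, the 24 h arrays comprised 5 with DMSO, 3 with the low dose and 2 with the high dose, and the 48 h arrays 6, 3 and 3. The labels number the arrays by biological replicate and by 1 of 3 experiments, and give neither the age of the mice nor the number of mice behind an experiment, so p-values measure the spread between these arrays. Each array also carries a label series, tagged by an IC20 time. The tag is 48 h on all 10 µM arrays, 24 h on all 50 µM arrays and either on DMSO arrays. Dose comparisons used the DMSO arrays of both label series unless stated. A protocol field speaks of HepG2 cells, whereas the other fields name primary hepatocytes.

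A miRNA is cut from a hairpin precursor and pairs with messenger RNAs chiefly through its seed, bases 2 to 8 of the mature strand, and so lowers their translation and stability. The host gene Mcm7 encodes a subunit of the helicase that unwinds DNA for replication, and the cluster inside it is known to rise with E2F activity in dividing cells. It is a paralogue of the miR-17~92a cluster: miR-106b and miR-93 share the miR-17 seed and are known to target the cell-cycle inhibitor p21, while miR-25 shares the miR-92a seed and is known to target Bim, a protein that promotes apoptosis.

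The mature strands are shown because the members fall into different seed families, which decides which other miRNAs of the array are their nearest relatives. Each is given 5′ to 3′ from RefSeq (mouse build GRCm38.p6), with the seed in capitals. The members come from the minus strand, at chr5:138165787-138165807 (miR-106b-5p), chr5:138165574-138165596 (miR-93-5p) and chr5:138165332-138165353 (miR-25-3p). Then follow the relatives that were also tested on the array.
miR-106b-5p: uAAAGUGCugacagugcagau
miR-93-5p: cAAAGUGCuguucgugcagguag
miR-17-5p: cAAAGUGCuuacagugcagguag
miR-20a-5p: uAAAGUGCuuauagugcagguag
miR-20b-5p: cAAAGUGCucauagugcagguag
miR-25-3p: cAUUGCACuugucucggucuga
miR-92a-3p: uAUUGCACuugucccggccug

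Compared position by position from the 5′ end, miR-106b-5p and miR-93-5p matched at 16 of 21 bases (76.2%). Their matches to miR-17-5p were 18 of 21 (85.7%) and 19 of 23 (82.6%). The third member stood apart: miR-25-3p matched miR-106b-5p at 5 of 21 bases (23.8%) and miR-93-5p at 9 of 22 (40.9%), but miR-92a-3p at 18 of 21 (85.7%). The seed AAAGUGC belonged to 7 mature mouse miRNAs in the RefSeq table, of which 6 were on the array and 5 were tested. The seed AUUGCAC belonged to 6, all on the array, and 2 of them were tested, miR-25-3p and miR-92a-3p.

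The hairpins are shown because the arm that was measured differs among them. In capitals is the measured arm, the 5′ arm in Mir106b and Mir93 and the 3′ arm in Mir25.
Mir106b, chr5:138165737-138165818: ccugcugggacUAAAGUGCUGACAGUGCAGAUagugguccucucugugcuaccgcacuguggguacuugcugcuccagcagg
Mir93, chr5:138165523-138165610: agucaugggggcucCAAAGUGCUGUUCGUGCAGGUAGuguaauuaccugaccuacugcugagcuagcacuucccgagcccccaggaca
Mir25, chr5:138165321-138165404: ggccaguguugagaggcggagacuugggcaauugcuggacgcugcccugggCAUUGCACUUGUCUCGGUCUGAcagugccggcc

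All 3 hairpins lie within the span of Mcm7 and take up 498 bases, with 126 bases between Mir106b and Mir93 and 118 between Mir93 and Mir25. The opposite arms miR-106b-3p, miR-93-3p and miR-25-5p were on the array and were above background on 0 of 22 arrays.

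The hepatocyte label was checked against its miRNAs: 5 of 5 hepatocyte miRNAs were above background, 4 of them on all arrays. Their summed scaled signal was 44.9 to 69.7 over all arrays. Most of that sum was miR-122-5p, with a log2 scaled signal of 5.33 to 5.93, beside 1.36 to 2.34 for miR-192-5p. Leukocyte (0 of 4), erythroid (0 of 2) and biliary or other epithelial miRNAs (0 of 5) were never above background. Of the endothelial markers 1 of 2 was (miR-126-3p, on 20 arrays, with a summed level of 0 to 0.238), and of the stellate and mesenchymal ones 1 of 5 (miR-145a-5p, on 13 arrays, at most 0.117). Sample names differ between the array files and the deposited value table: 16 of 22 columns of that table hold an array filed under another sample name, with 8 of the 16 from CsA cells, each under the other dose. Time, treatment and experiment are the same under both, so results with both doses pooled do not depend on the naming, and dose results are given under each.

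The signal of a miRNA is given as the log2 of its processed intensity divided by the array's 75th percentile, so 0 is the level of that percentile and each unit is a doubling. All members were above background on 22 of 22 arrays. The processed intensity was 35.2 to 83.5 for miR-106b-5p (median 55.5), 57.9 to 158 for miR-93-5p (median 98.2) and 57.0 to 155 for miR-25-3p (median 93.9). Intensities of different probes are not comparable as amounts. On the log2 scale miR-106b-5p lay between -3.08 and -1.69 (median -2.56), miR-93-5p between -2.69 and -0.77 (median -1.69) and miR-25-3p between -2.69 and -0.83 (median -1.60). The highest array was the same for all members, DMSO 48 h replicate 2.

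After 24 h, miR-106b-5p read -2.21, -2.67, -2.53, -3.06 and -2.72 on the DMSO arrays (replicates 1, 3, 4, 5 and 6). By the array files it read -2.13, -2.71 and -2.91 at 10 µM (replicates 1, 2 and 3) and -2.85 and -2.87 at 50 µM (replicates 2 and 3). All CsA arrays but 10 µM replicate 1 lay within the range of the DMSO arrays. miR-93-5p, with the same seed, read -1.47, -1.83, -1.45, -2.69 and -2.14 in DMSO. In CsA it read -1.31, -1.81 and -1.94 at 10 µM and -1.93 and -1.96 at 50 µM. The lowest miR-93-5p value belonged to DMSO replicate 5 and the highest to 10 µM replicate 1, and the groups overlapped. miR-25-3p read -1.67, -1.90, -1.53, -2.69 and -2.21 in DMSO. In CsA it read -1.45, -1.63 and -1.78 at 10 µM and -1.82 and -1.88 at 50 µM. DMSO replicates 3, 5 and 6 were lower in miR-25-3p than every CsA array, and DMSO replicates 1 and 4 lay among them.

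Whether CsA changed the cluster at 24 h was asked with both doses pooled (n = 5 and 5). The log2 difference, CsA minus DMSO, was -0.06 ± 0.24 (SE) for miR-106b-5p, 0.13 ± 0.26 for miR-93-5p and 0.29 ± 0.23 for miR-25-3p. The 95% intervals were -0.55 to 0.44, -0.43 to 0.68 and -0.20 to 0.78. None passed limma's moderated test after Benjamini-Hochberg adjustment over the 295 miRNAs (adjusted p = 1, 1 and 0.941). No miRNA of the array was called at an adjusted p under 0.05 (0 of 295, 0%), and 19 had an unadjusted p under 0.05. With the experiment as a block 1 miRNA was called, and it was no member.

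By dose, the 24 h differences from DMSO named by the array files were 0.06, 0.23 and 0.38 at 10 µM for miR-106b-5p, miR-93-5p and miR-25-3p (limma adjusted p = 1, 0.932 and 0.875). At 50 µM they were -0.22, -0.03 and 0.15 (adjusted p = 1 for each). No miRNA was called in limma at either dose (0% and 0%), with 19 and 8 at an unadjusted p under 0.05. Named by the value table, the values were 0.02, 0.18 and 0.28 at 10 µM, where 0% of miRNAs were called and 16 had an unadjusted p under 0.05. They were -0.17, 0.04 and 0.29 at 50 µM (adjusted p = 0.83, 0.991 and 0.727), where 3.73% of miRNAs were called. The doses share the DMSO arrays, so these values are given side by side only.

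After 48 h, miR-106b-5p ranged from -2.70 to -1.69 in DMSO (median -2.04, n = 6) and from -3.08 to -1.75 in CsA (median -2.39, n = 6). miR-93-5p ranged from -1.78 to -0.77 in DMSO (median -1.16) and from -2.33 to -1.01 in CsA (median -1.65). miR-25-3p ranged from -2.06 to -0.83 in DMSO (median -1.38) and from -1.96 to -0.95 in CsA (median -1.54). The groups overlapped for all 3 members. For the pair with the miR-17 seed, the lowest values were those of the CsA array filed as 10 µM replicate 3, whose scaling percentile, 604, was the highest of the 22.

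**Figure D1:**
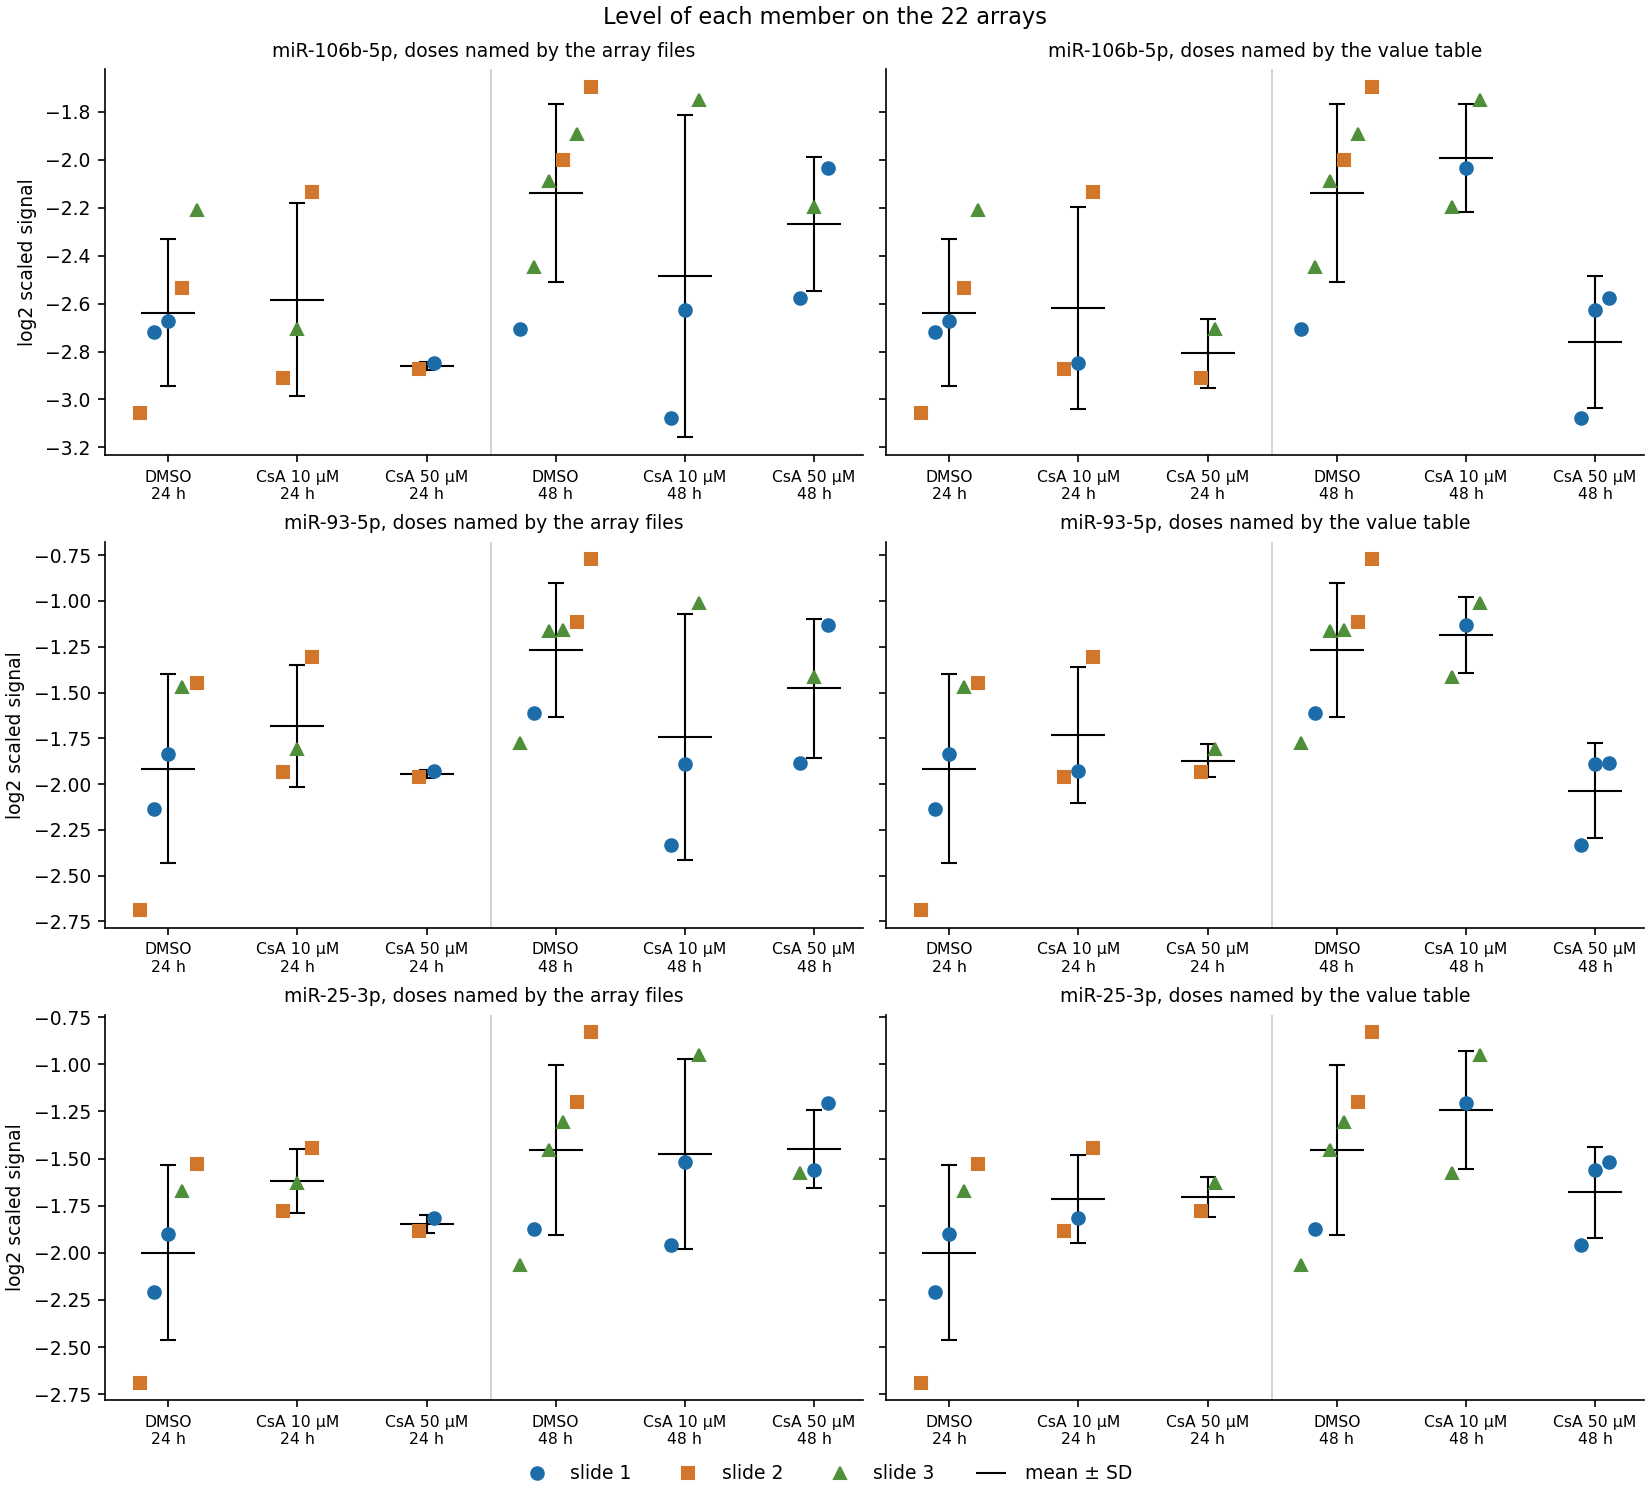
Log2 scaled signal (vertical axes) of each member on every array, by dose and time (horizontal axes), with doses named by the array files on the left and by the value table on the right. Symbols give the slide, and lines the mean and SD of each group. At 48 h the arrays named 50 µM spread among the others on the left, and on the right all 3 lie on slide 1, with miR-93-5p at -2.33, -1.89 and -1.89, below the 6 DMSO arrays.

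With both doses pooled, the log2 difference at 48 h was -0.24 ± 0.21 (SE, n = 6 and 6) for miR-106b-5p, -0.34 ± 0.24 for miR-93-5p and -0.01 ± 0.21 for miR-25-3p. The 95% intervals were -0.69 to 0.21, -0.85 to 0.16 and -0.45 to 0.44. None passed (limma adjusted p = 0.498, 0.384 and 1), and 3 of 295 miRNAs (1.02%) did, 1 higher and 2 lower (2 and 2 after quantile normalisation, 0 and 6 with the percentile taken over all probes). With the experiment as a block 9 miRNAs were called, again without a member. Left out singly, DMSO replicate 5, 10 µM replicate 1, 50 µM replicate 2 and 50 µM replicate 3 raised the count to 55, 32, 28 and 5, and without any other array it was 1 or 2. Within experiments 1, 2 and 3, miR-93-5p differed by -0.51, -0.35 and -0.18 and miR-106b-5p by -0.32, -0.34 and -0.06. miR-25-3p did not keep a direction, at -0.24, 0.02 and 0.20. Left out 1 array at a time, the miR-25-3p difference ran from -0.13 to 0.12.

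The difference between the CsA effect at 48 h and that at 24 h was -0.18 ± 0.32 (SE) for miR-106b-5p, -0.47 ± 0.36 for miR-93-5p and -0.30 ± 0.32 for miR-25-3p. It passed for no member in limma (adjusted p = 0.821, 0.796 and 0.796). It passed for no miRNA of the array either (0%, with 7 at an unadjusted p under 0.05).

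What culture time alone did was read from the DMSO arrays, where all 3 members stood higher at 48 h than at 24 h, short of the threshold. The log2 difference was 0.50 ± 0.23 (SE, n = 6 and 5) for miR-106b-5p, a 1.41-fold higher level. It was 0.65 ± 0.25 for miR-93-5p (1.57-fold) and 0.54 ± 0.22 for miR-25-3p (1.46-fold). Unadjusted p-values were 0.0384, 0.0189 and 0.0252, and limma's adjusted p-values 0.337, 0.300 and 0.300. Only 1 of 295 miRNAs (0.339%) was called, and the median over all 295 was 0.05. The groups overlapped for each member.

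The time difference in DMSO was positive within every experiment, at 0.36, 0.61 and 0.31 for miR-106b-5p, 0.53, 0.48 and 0.72 for miR-93-5p and 0.66, 0.33 and 0.48 for miR-25-3p. With the experiment as a block the adjusted p-values were 0.168, 0.112 and 0.0749, and 10 miRNAs were called. The size differed by slide. Within slide 2 it was 0.95, 1.12 and 1.09, within slide 3 it was 0.07, 0.10 and 0.06, and within slide 1 it was -0.01, 0.37 and 0.18. No slide held the same experiments at both times. On slide 2 the 48 h arrays were of experiment 1 and the 24 h arrays of experiments 2 and 3. On slide 3 the only 24 h array was of experiment 1 and the 48 h arrays of experiments 2 and 3. On slide 1 the only 48 h array was of experiment 3 and the 24 h arrays of experiments 2 and 3. With the slide as a block the differences were 0.39, 0.56 and 0.50 (adjusted p = 0.490, 0.486 and 0.486). The part of the slide in the time difference, and that of the experiment in the values within slides, were not tested.

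In CsA, doses pooled, the 48 h minus 24 h difference was 0.32 ± 0.23 (SE, n = 6 and 5) for miR-106b-5p, 0.18 ± 0.25 for miR-93-5p and 0.25 ± 0.22 for miR-25-3p (limma adjusted p = 0.441, 0.692 and 0.515). Of all miRNAs 0.339% were called and the median was 0.16. Scaled by the 75th percentile over all probes instead, the 3 differences were -0.03, -0.17 and -0.10 and the median of all miRNAs -0.07. Hepatocyte marker miRNAs stood lower at 48 h, short of the threshold. All 5 were below 0 with time in DMSO, from -0.63 (miR-101a-3p) to -0.19, and in CsA, from -0.44 to -0.29. miR-122-5p, the dominant hepatocyte miRNA, differed by -0.26 in DMSO and by -0.29 in CsA, with the lowest limma adjusted p of the 5 in each (0.22 and 0.124). The endothelial miR-126-3p differed by -0.63 in DMSO (adjusted p = 0.300), and by -0.48 in CsA. The summed scaled hepatocyte signal, mostly that of miR-122-5p, was 49.3 to 67.9 in DMSO at 24 h and 44.9 to 58.4 at 48 h. The part of these changes in the members' time difference was not tested.

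The dose comparison at 48 h turned on the naming. By the array files, the 10 µM arrays (replicates 1, 2 and 3) read -1.75, -2.63 and -3.08 for miR-106b-5p, -1.01, -1.89 and -2.33 for miR-93-5p and -0.95, -1.52 and -1.96 for miR-25-3p. The 50 µM arrays read -2.58, -2.03 and -2.20 for miR-106b-5p, -1.89, -1.13 and -1.41 for miR-93-5p and -1.56, -1.21 and -1.57 for miR-25-3p. The 10 µM group holds both the highest and the lowest CsA array of each member at 48 h.

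Against DMSO the differences by the array files were -0.35 ± 0.27 (SE), -0.48 ± 0.30 and -0.02 ± 0.27 at 10 µM for miR-106b-5p, miR-93-5p and miR-25-3p (limma adjusted p = 0.47, 0.359 and 1). There 18 miRNAs (6.1%) were called, 17 higher and 1 lower (1 and 1 after quantile normalisation, 0 in all when scaled over all probes), and 32 with the experiment as a block, none of them a member. Single arrays decided this count: it was 84 without 10 µM replicate 1, 68 without DMSO replicate 5 and at most 3 without any other array. At 50 µM they were -0.13, -0.21 and 0.01 (adjusted p = 0.876, 0.81 and 1), with 0.339% of miRNAs called. The 50 µM arrays differed from the 10 µM arrays by 0.22 ± 0.31, 0.27 ± 0.35 and 0.03 ± 0.32 (adjusted p = 1 for each). In that comparison 0 miRNAs (0%) were called in limma and 15 had an unadjusted p under 0.05.

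Named by the value table, the arrays of replicates 2 and 3 change places between the doses. The 50 µM arrays (replicates 1, 2 and 3) then read -2.58, -2.63 and -3.08 for miR-106b-5p and -1.89, -1.89 and -2.33 for miR-93-5p. The 10 µM arrays read -1.75, -2.03 and -2.20 for miR-106b-5p and -1.01, -1.13 and -1.41 for miR-93-5p. Every 50 µM array was lower than every 10 µM array for both of these members. miR-93-5p at 50 µM was also below all 6 DMSO arrays, while miR-106b-5p overlapped them, because the DMSO array filed as replicate 6 read -2.70. miR-25-3p read -1.56, -1.52 and -1.96 at 50 µM and -0.95, -1.21 and -1.57 at 10 µM, and overlapped in both comparisons. The lowest of these 50 µM arrays, replicate 3, is the one filed as 10 µM replicate 3, with the scaling percentile of 604. Before scaling, its intensities of 71.5 (miR-106b-5p) and 120 (miR-93-5p) lay within the 48 h DMSO ranges of 53.7 to 83.5 and 96.2 to 158. Fits without it are given below. The part of its scaling in the differences from DMSO was not tested.

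Under these names both miR-17-seed members fell at 50 µM against DMSO. miR-106b-5p was 1.54-fold lower, with a log2 difference of -0.62 ± 0.22 (SE, n = 3 and 6, 95% interval -1.09 to -0.15, limma adjusted p = 0.0348). miR-93-5p was 1.70-fold lower, with -0.77 ± 0.26 (interval -1.31 to -0.23, adjusted p = 0.0237). miR-25-3p differed by -0.23 ± 0.26 (interval -0.77 to 0.32, adjusted p = 0.514). In this comparison 36.9% of all tested miRNAs were called, 80 higher and 29 (9.83%) lower, and the 109 calls became 170 without DMSO replicate 6 of the value table. Of the cell type markers in the same comparison, 4 of 5 hepatocyte miRNAs were below 0 and 1 was called, miR-192-5p (-0.47, limma adjusted p = 0.0194), beside miR-122-5p at 0.06 (adjusted p = 0.717) and a list median of -0.28. The stellate marker miR-145a-5p was at 0.68 and the endothelial miR-126-3p at 0.18 (adjusted p = 0.101 and 0.679). Their part in the members' fall was not tested. The split moved with the scaling, to 68 higher and 67 lower after quantile normalisation and to 42 and 71 when arrays were scaled over all probes, and the median over all miRNAs was 0.12, 0.00 and -0.13 under the 3 scalings, while both members stayed lower and called. The sizes moved too, to -1.01 and -1.08 for miR-106b-5p and miR-93-5p after quantile normalisation (limma adjusted p = 0.00731 and 0.00855), and to -1.20 and -1.35 with all probes (adjusted p = 0.00865 and 0.00892). miR-25-3p was -0.56 and -0.80 there, without passing (adjusted p = 0.150 and 0.097). Groups without overlap, with 50 µM below DMSO, were found for 9.15% of miRNAs, among them miR-93-5p. At 10 µM the differences from DMSO were 0.14, 0.08 and 0.21 (adjusted p = 1 for each), and 1.02% of miRNAs were called.

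The 50 µM arrays of the value table also differed from its 10 µM arrays, by -0.77 ± 0.26 (SE, n = 3 and 3) for miR-106b-5p (limma adjusted p = 0.0355) and -0.85 ± 0.30 for miR-93-5p (adjusted p = 0.0403). miR-25-3p differed by -0.44 ± 0.30 (adjusted p = 0.264). Of all miRNAs 27.8% were called, 63 higher and 19 (6.44%) lower (47 and 40 after quantile normalisation), and 24.1% did not overlap with 50 µM the lower. The 5 hepatocyte miRNAs were all below 0 here (median -0.36), with a lowest limma adjusted p of 0.0548 for miR-148a-3p. The 82 calls became 44 to 53 without 10 µM replicate 1 or 2 or 50 µM replicate 3. With the percentile over all probes the members differed by -1.09 and -1.17 and did not pass (adjusted p = 0.0582 and 0.0686). Both comparisons use the same 50 µM arrays, so they do not count as separate evidence.

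These calls moved with the slide. All 3 of the 48 h arrays given as 50 µM by the value table lie on slide 1, together with only 1 DMSO array of 48 h. Within that slide the differences from DMSO were -0.06 for miR-106b-5p, -0.42 for miR-93-5p and 0.19 for miR-25-3p. The 50 µM arrays were of experiments 1, 2 and 3, and the DMSO array of experiment 3. In DMSO at 48 h experiment 3 had the lowest mean of every member. The parts of slide and experiment in these differences were not tested. With the slide as a block, miR-106b-5p differed from DMSO by -0.38 (limma adjusted p = 0.324) and miR-93-5p by -0.62 (adjusted p = 0.164). Against 10 µM they differed by -0.56 (adjusted p = 0.176) and -0.74 (adjusted p = 0.140). With the experiment as a block both calls stood, with adjusted p = 0.00053 and 0.000619 against DMSO and 0.000544 and 0.00129 against 10 µM. miR-25-3p gave 0.205 and 0.0532.

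Single arrays, numbered here as in the value table, also decided the calls. Against DMSO, miR-93-5p lost its call without 50 µM replicate 3 (-0.62, adjusted p = 0.138 in limma) and without DMSO replicate 2 (-0.67, adjusted p = 0.0516). miR-106b-5p lost it without 50 µM replicate 2 (-0.69) or 3 (-0.46) and without DMSO replicate 1 (-0.59), 2 (-0.53), 3 (-0.61) or 4 (-0.57), with adjusted p from 0.0566 to 0.195. Against 10 µM, miR-106b-5p kept its call in 2 of 6 such fits, without 50 µM replicate 1 or 10 µM replicate 3. miR-93-5p kept it in 1 of 6, without 10 µM replicate 3. In the others the differences were -0.83 to -0.61 for miR-106b-5p and -0.92 to -0.70 for miR-93-5p. No direction changed.

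**Figure D2:**
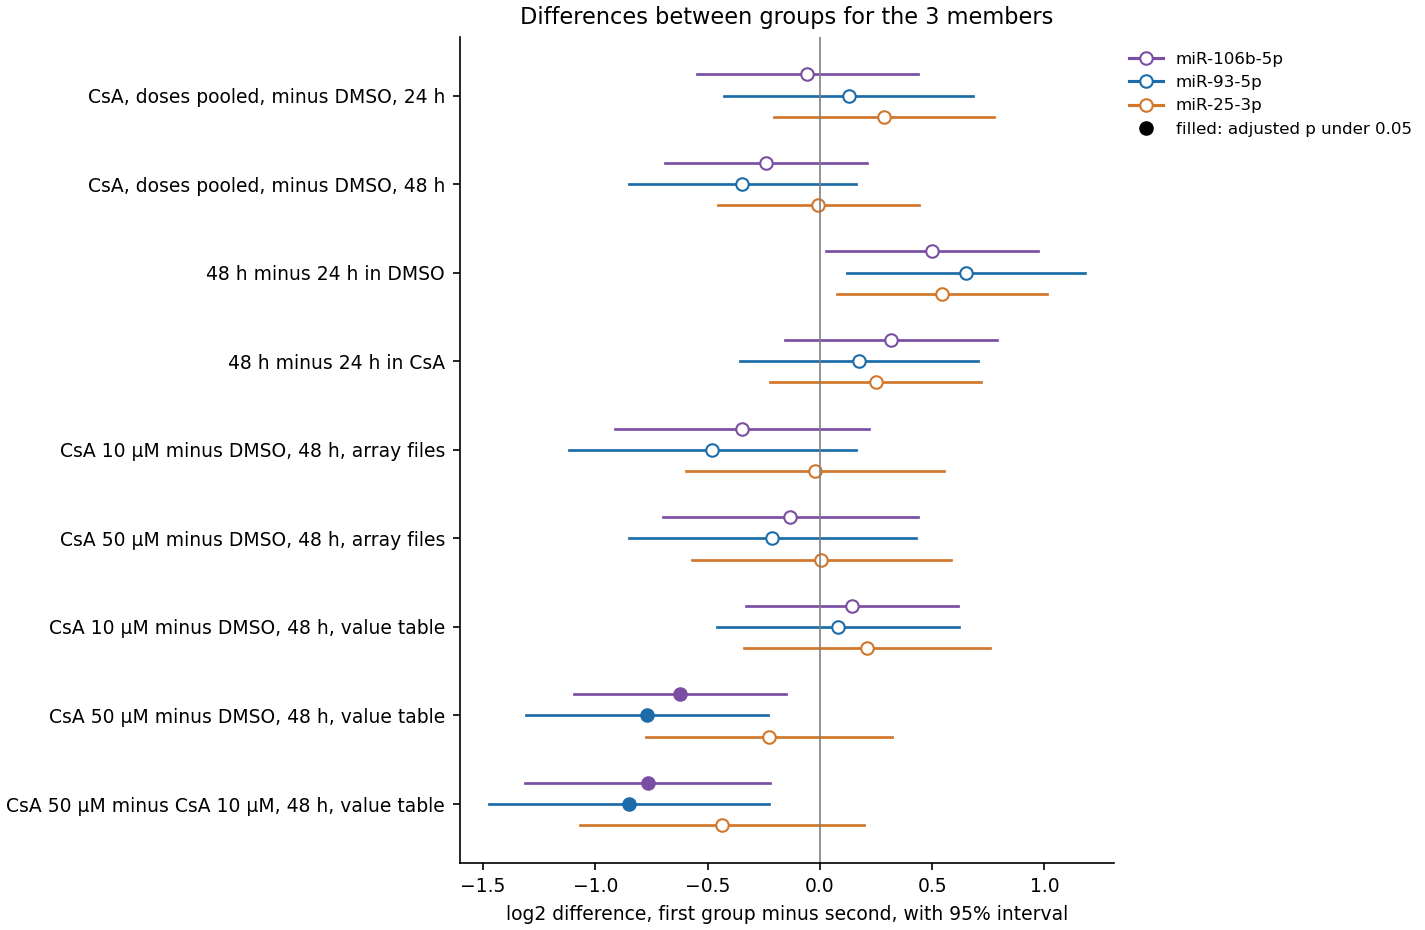
Log2 differences between groups (points, horizontal axis) with 95% intervals for the 3 members, in 9 comparisons listed on the vertical axis. Filled points passed at an adjusted p under 0.05: miR-106b-5p and miR-93-5p at 50 µM after 48 h as named by the value table, at -0.62 and -0.77 against DMSO and at -0.77 and -0.85 against 10 µM.

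The balance between the members was read as the log2 difference of 2 members on the same array, from which any scaling of the array cancels. At 24 h, miR-25-3p minus miR-93-5p was -0.20, -0.06, -0.08, -0.00157 and -0.07 on the DMSO arrays (replicates 1, 3, 4, 5 and 6). On the CsA arrays it was -0.14, 0.18 and 0.16 at 10 µM (replicates 1, 2 and 3) and 0.11 and 0.08 at 50 µM (replicates 2 and 3), by the array files. Every CsA array but 10 µM replicate 1 was above all 5 DMSO arrays. Both the level and the order of arrays moved with the probes. With the second probe of each member the DMSO arrays lay at 0.0109 to 0.350 and the CsA arrays at 0.193 to 0.554. The CsA array among the DMSO arrays was then 50 µM replicate 3, while 10 µM replicate 1 lay above all 5. With the brightest probes at 48 h the DMSO arrays gave -0.29 to -0.06, and the CsA arrays gave -0.16 to 0.37. By the array files these were 0.06, 0.37 and 0.37 at 10 µM and 0.32, -0.07 and -0.16 at 50 µM, so the groups overlapped through 50 µM replicates 2 and 3.

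The mean of miR-25-3p minus miR-93-5p at 48 h was 0.15 ± 0.24 in CsA and -0.19 ± 0.10 in DMSO (SD, n = 6 and 6), a difference of 0.34. Its p in an exact two-sided permutation test over arrays was 0.0152, which became 0.0909 after Benjamini-Hochberg adjustment over 6 tests (3 pairs at 2 times), and 6 of 6 CsA arrays lay above the DMSO median. At 24 h the means were 0.08 ± 0.13 and -0.08 ± 0.07 (n = 5 and 5), a difference of 0.16 with exact p = 0.0397 (adjusted 0.111), and 4 of 5 CsA arrays lay above the DMSO median. For miR-25-3p minus miR-106b-5p the differences were 0.34 at 24 h (exact p = 0.0556, adjusted 0.111) and 0.23 at 48 h (exact p = 0.0844, adjusted 0.127). None of the 6 passed after adjustment. The smallest p these designs allow is 0.00794 at 24 h and 0.00216 at 48 h. With the arrays paired by experiment and exchanged only within it, miR-25-3p minus miR-93-5p had exact p = 0.0278 at 24 h and 0.00926 at 48 h, the smallest that test allows, and miR-25-3p minus miR-106b-5p 0.0278 at 24 h and 0.13 at 48 h. After adjustment the first 3 of these were 0.0556 and the last 0.194, so none passed there either.

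The sign of the shift in miR-25-3p minus miR-93-5p was the same in every slide and experiment that held both treatments. At 48 h it was 0.51 within slide 1 and 0.19 within slide 3, and 0.26, 0.37 and 0.38 within experiments 1, 2 and 3. At 24 h it was 0.18, 0.07 and 0.37 within slides 1, 2 and 3, and 0.06, 0.22 and 0.15 within the experiments. Some of these values rest on single arrays. At 24 h slide 3 and experiment 1 each held 1 CsA and 1 DMSO array. Slide 1 held 1 CsA array at 24 h and 1 DMSO array at 48 h. Slides and experiments split the same arrays, so they do not count as separate evidence. Leaving out 1 array moved the adjusted p of this pair below 0.05 in 2 cases. It was 0.0455 at 24 h without 10 µM replicate 1 (difference 0.21, exact p = 0.00794). At 48 h it was 0.026 without 50 µM replicate 3 (difference 0.40, exact p = 0.00433). In each such case only the p of the pair named was renewed, and the other 5 in the adjustment were those with all arrays. Adjusted p-values with every pair renewed were not computed. The miR-17-seed pair, miR-106b-5p minus miR-93-5p, gave a log2 difference between CsA and DMSO of -0.18 at 24 h and 0.11 at 48 h (exact p = 0.206 and 0.167, adjusted 0.206 and 0.2). Without DMSO replicate 4 the 24 h difference was -0.27 (exact p = 0.0159, adjusted 0.0476 in the same way).

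By dose at 48 h, miR-25-3p minus miR-93-5p differed from DMSO by 0.46 at 10 µM and 0.22 at 50 µM as named by the array files (exact p = 0.0119 and 0.0952). Named by the value table it differed by 0.13 at 10 µM and 0.54 at 50 µM (exact p = 0.167 and 0.0119). The value 0.0119 is the smallest this design allows. It became 0.143 under either naming after adjustment over the 3 pairs, both times and both doses. A single test at that smallest p could not pass this adjustment, so it does not decide whether the doses differ from DMSO.

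**Figure D3:**
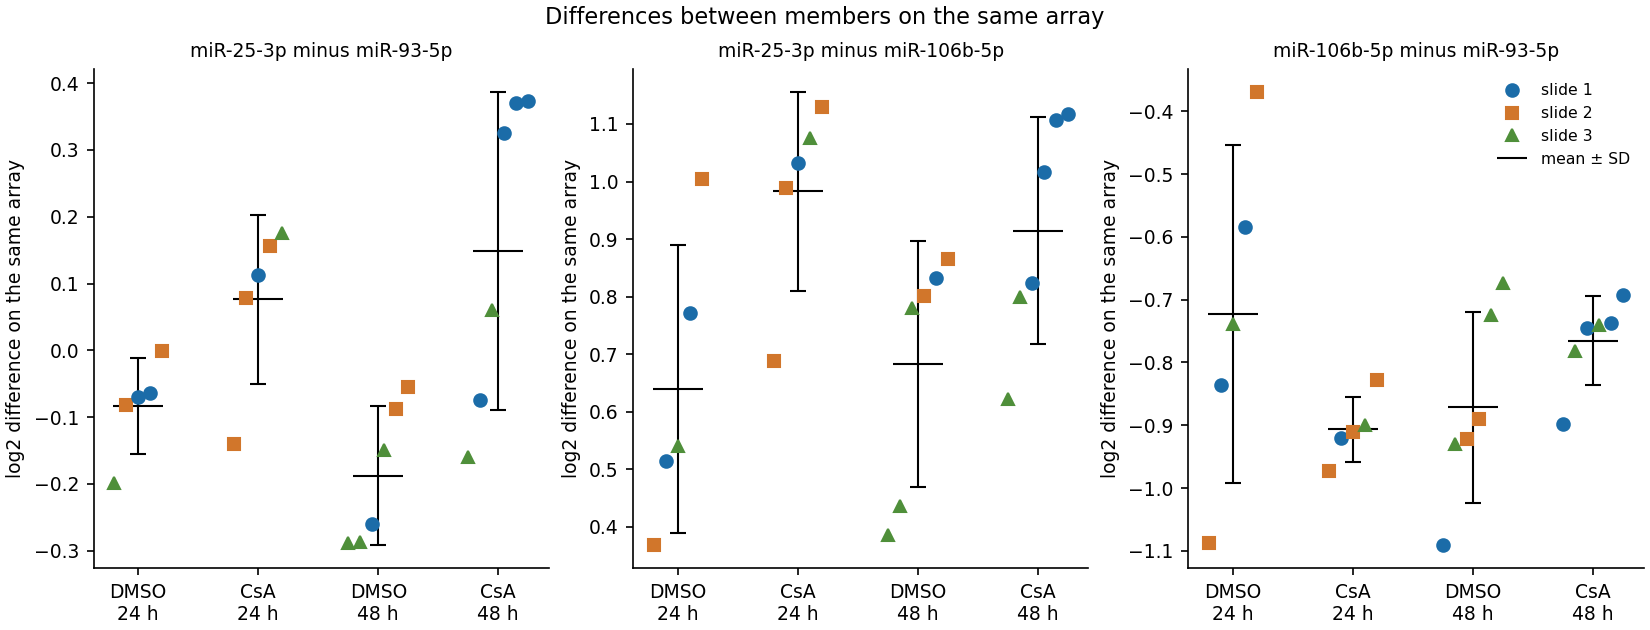
Log2 difference between members on the same array (vertical axes) by treatment and time (horizontal axes), with symbols for the slide and lines for the mean and SD. In the left panel, miR-25-3p minus miR-93-5p averages -0.08 and -0.19 in DMSO and 0.08 and 0.15 in CsA at 24 h and 48 h. The groups overlap at both times.

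The members followed each other across arrays. Over the 22 arrays Pearson's r was 0.939 for miR-106b-5p with miR-93-5p, 0.907 for miR-25-3p with miR-93-5p and 0.831 for miR-25-3p with miR-106b-5p. Spearman's rho was 0.955, 0.862 and 0.839. Each had p = 1e-05 in a permutation test, the smallest that 100000 permutations give, and 1e-05 after adjustment over 3 relations. That test exchanged arrays freely across experiments, slides and groups, so its p treats the 22 arrays as independent. Without the 2 arrays farthest from the median, r was 0.92, 0.84 and 0.79, and with the 4 group means subtracted it was 0.933, 0.936 and 0.848. Within slides 1, 2 and 3 the miR-17-seed pair had r = 0.9, 0.943 and 0.956, and the lowest value of the others was 0.74.

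Both values of a pair were divided by the same percentile of their array, which can move them together, and permuted values do not share that divisor. Among the 12561 pairs of the 159 miRNAs above background on every array, the median r was 0.0227, and 9.12% of pairs reached the lowest r of the cluster. The part of the scaling in the shared movement was not tested.

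**Figure D4:**
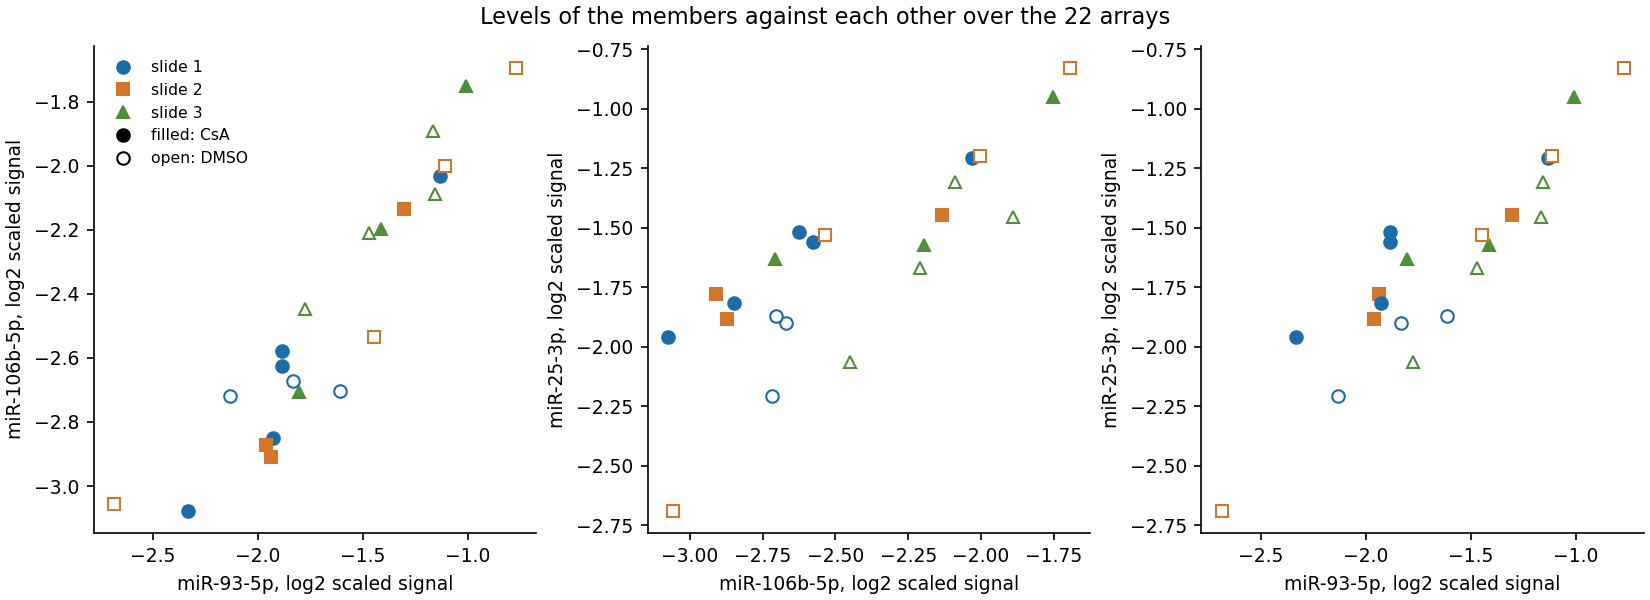
Log2 scaled signal of 2 members against each other on the 22 arrays, 1 panel for each pair, with symbols for the slide, filled for CsA and open for DMSO. Points run along a rising line in each panel, with r = 0.939 (left), 0.831 (middle) and 0.907 (right). In the middle and right panels the CsA points lie mostly above the DMSO points of similar horizontal value.

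Experiments also stood at different levels, in the same order within each of the 4 groups of treatment and time: experiment 1 was highest and experiment 3 lowest in the mean of every member. In DMSO at 48 h, with 2 arrays for each experiment, miR-106b-5p averaged -1.85, -1.99 and -2.58 in experiments 1, 2 and 3, miR-93-5p -0.94, -1.16 and -1.69, and miR-25-3p -1.01, -1.38 and -1.97.

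Of 290 other candidates, the miRNAs whose pattern over 22 arrays was most like the mean of the members were miR-34a-5p (r = 0.968), let-7i-5p (0.962), miR-27a-3p (0.959), miR-23a-3p (0.954) and miR-98-5p (0.950). The median r of the candidates was -0.19. With the 4 group means subtracted the closest were miR-151-5p (0.968), miR-34a-5p (0.961), miR-23a-3p (0.958), let-7i-5p (0.955) and miR-24-3p (0.954). None of these shares a seed with a member. These values share the scaling of the arrays and are given as a description.

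The relatives with the seeds printed above were also compared with the members. Correlations with the mean of the members were 0.889 for miR-20a-5p, 0.876 for miR-20b-5p, 0.866 for miR-92a-3p and 0.632 for miR-17-5p, which was above background on 19 arrays only. The median log2 difference over the 3 other tested miRNAs of the miR-17 seed was 0.58 for CsA minus DMSO at 24 h, where the median over all miRNAs was 0.04. It was 0.12 at 48 h (all miRNAs 0.09) and 0.66 for time in DMSO (all miRNAs 0.05). None of the 3 was called in any comparison. Beside these, the log2 differences of miR-106b-5p and miR-93-5p at 24 h were -0.06 and 0.13. miR-92a-3p, the tested relative of miR-25-3p, differed by 0.51 at 24 h (limma adjusted p = 0.884), by 0.11 at 48 h and by 0.68 for time in DMSO (adjusted p = 0.337).

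The paralogous miR-17~92a cluster, known as a driver of proliferation, has 12 mature strands on the array, of which 7 were tested. For time in DMSO its median log2 difference was 0.59, with 7 of 7 strands above 0 and 0 called in limma, where all miRNAs had a median of 0.05. At 50 µM after 48 h as named by the value table its median was -0.25, beside 0.12 over all miRNAs, with 7 of 7 below 0. There 1 of 7 strands was called, miR-18a-5p (-0.92, limma adjusted p = 0.0292), where 9.83% of all miRNAs were called lower. Against 10 µM the median was -0.73 (all miRNAs 0.10), and 2 of 7 strands were called, miR-18a-5p (-1.29, adjusted p = 0.0154) and miR-19b-3p (-1.09, adjusted p = 0.0361), where 6.44% of all miRNAs were called lower. These are the comparisons in which miR-106b-5p and miR-93-5p were called, and they rest on the same 3 arrays of slide 1. Of the 10 strands of the miR-106a to miR-363 cluster that were listed apart from miR-17~92a, 9 were on the array. Of these 1 was tested, miR-20b-5p, at 0.58 (24 h), 0.15 (48 h) and 0.66 (time in DMSO). That cluster also encodes miR-19b-3p and miR-92a-3p, which were counted with miR-17~92a only. Their signal does not tell the 2 clusters apart.

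The second probe of each member was above background on 21 of 22 arrays, and its log2 values followed those of the brightest probe with r = 0.942 for miR-106b-5p, 0.980 for miR-93-5p and 0.978 for miR-25-3p.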

How the data were processed

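The 22 arrays were read with Feature Extraction software of version 10.7.3.1, and the slide was taken from the same place, per the file headers. The deposited spot signal is a background-corrected fluorescence intensity; control spots and outlier spots were left out and 0 spots were saturated. Each array held 49880 non-control spots for 3105 probes. The deposited value table holds log2 intensities made by the authors with R 2.15.2 according to the submitters' processing notes; other steps are not given in the sources used here. It served as an alternative and, because its columns matched arrays at a rank correlation of 1 (0.968 at most for any other array), for the second naming of the doses.

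Each array was scaled by the 75th percentile (181 to 604) of the probe means of 284 probes that were above background everywhere, and log2 values were taken with a minimum of 0.0459 before the log (-4.44 after it). A probe was above background where a share of 0.5 of its spots was, and the brightest probe stood for a miRNA. The 295 miRNAs above background on at least 3 arrays were tested with limma 3.58.1 in R 4.3.3 (lmFit, eBayes, Benjamini-Hochberg adjustment, called under 0.05), in 1 fit over the 4 groups of treatment and time and 1 over the 6 groups of dose and time for each naming. The scripts were tested on simulated data. The number of arrays limits the precision. The labels give the experiment of each array, so it was tried as a replicate block. Deviations from group means in same-numbered experiments correlated at 0.101 to 0.804 over 159 miRNAs. Differently numbered experiments were not compared, so these correlations do not show by themselves that the experiment pairs the arrays. Sequences and coordinates are those of RefSeq on GRCm38.p6. The text names the members, their opposite arms, their paralogous clusters and seed families, the 5 miRNAs most like them with and without group means, miR-122-5p and, beside results they move with, other cell type markers. Members, lists and rules were chosen with earlier results of these data known. Of the 24 arrays in the design text, 22 were used and 2 not analysed here.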

Additional observations from a re-analysis of the deposited data

Results flagged for a closer look

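The CsA array of 24 h filed as 10 µM replicate 1 stood above the other 4 CsA arrays of that time in both miR-17-seed members, at -2.13 for miR-106b-5p and -1.31 for miR-93-5p on the log2 scale. Its gap to the nearest array exceeded Dixon's 95% critical value for 5 samples, which chance gives in about 1 in 20 groups. Every member and every pair of members was checked in each of the 4 groups of treatment and time. This array was the only 24 h CsA array of experiment 1, the experiment with the highest mean of every member in each group. The part of the experiment in its level was not tested.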

How the results depend on the processing

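With normexp background, the mean over probes, second probes, scaling over all probes, quantile normalisation, the deposited value table, no filter on dim probes, only the compared arrays, or a block by slide or experiment, no member passed in a pooled comparison. With the first 3 of these or the total gene signal, no pair of members passed. The second probes, the values and permutations within experiments, the pair differences by dose and the alternatives under value-table names were added after seeing the data. In the unfiltered setting, miRNAs at the floor on all arrays were dropped. Differences are log2, in the order miR-106b-5p, miR-93-5p, miR-25-3p where 3 are given.

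Scaling over all probes gave -0.0304, -0.17 and -0.0987 for time in CsA, -0.00687 for miR-106b-5p at 10 µM and 0.0478 for miR-93-5p at 50 µM (24 h), -0.31 for miR-25-3p at 50 µM (48 h) and, by value-table names, -1.09 and -1.17 for the miR-17-seed members at 50 µM against 10 µM (limma adjusted p = 0.0582 and 0.0686). Quantile normalisation gave -0.0394 for miR-93-5p (time in CsA), -0.0563 for miR-106b-5p at 10 µM and 0.0451 for miR-93-5p at 50 µM (24 h), and -0.0700 for miR-25-3p at 50 µM (48 h). The mean over probes gave miR-25-3p -0.0180 at 50 µM and -0.00415 against 10 µM, and the second probe -0.0427 and -0.0371. The value table's own values at 48 h were 0.10, 0.0700 and 0.21 at 10 µM, -1.12, -1.18 and -0.55 at 50 µM (adjusted p = 0.00651, 0.00635 and 0.187) and -1.23, -1.25 and -0.76 between doses (adjusted p = 0.015, 0.0163 and 0.141); for time in CsA miR-93-5p was -0.0665. Moving from file names to value-table names gave 0.0438 for miR-93-5p at 50 µM (24 h), 0.14, 0.0797 and 0.21 at 10 µM, -0.62, -0.77 and -0.23 at 50 µM and -0.77, -0.85 and -0.44 between doses (48 h).

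The replicate block, which pairs the arrays by experiment, gave -0.00531 for miR-106b-5p at 10 µM and 0.0573 for miR-93-5p at 50 µM (24 h). It changed no call of a member. With arrays exchanged within experiments no call of a pair changed either, but there 1 pair alone could not pass after adjustment. The slide block gave 0.13 for miR-25-3p (48 h, pooled), 0.0722 for miR-106b-5p in the difference of CsA effects, -0.0890 for miR-106b-5p at 10 µM and 0.00725 for miR-93-5p at 50 µM (24 h), and at 48 h 0.10 for miR-25-3p at 10 µM and 0.0496 for miR-106b-5p at 50 µM. By value-table names it gave -0.38 and -0.62 for the miR-17-seed members against DMSO and -0.56 and -0.74 against 10 µM. There miR-106b-5p was not called with only the compared arrays fitted (-0.62, adjusted p = 0.0794) or with DMSO arrays of the same label series (-0.60, adjusted p = 0.0842). Those DMSO arrays gave -0.0950 for miR-106b-5p at 10 µM, and 0.00336 and 0.32 for miR-106b-5p and miR-93-5p at 50 µM (24 h).

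Within slide 1, values were -0.00869 for miR-106b-5p (time in DMSO), 0.40 and 0.49 for miR-106b-5p and miR-25-3p (50 µM, 48 h), -0.0562, -0.42 and 0.19 by value-table names, and 0.32 for miR-106b-5p minus miR-93-5p (48 h). Within slide 2, time in DMSO was 0.95, 1.12 and 1.09. Within slide 3 it was 0.0675, 0.10 and 0.0618, and time in CsA 0.73 and 0.59 for miR-106b-5p and miR-93-5p. There CsA minus DMSO was -0.50 and -0.34 for these at 24 h, pooled and at 10 µM, and at 48 h 0.15 for miR-93-5p pooled, 0.39, 0.35 and 0.66 at 10 µM and -0.44, -0.40 and -0.62 between doses. There too miR-25-3p minus miR-93-5p was 0.37 (24 h). Within experiments 2 and 3, miR-106b-5p minus miR-93-5p was 0.0512 and -0.47 (24 h), and within experiment 3 miR-25-3p minus miR-106b-5p was 0.62. The cause of these changes was not tested.

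With 1 array left out, ranges were -0.20 to 0.0515 for miR-106b-5p and -0.0655 to 0.24 for miR-93-5p (24 h pooled), -0.13 to 0.12 for miR-25-3p (48 h pooled), -0.17 to 0.22 for miR-106b-5p (10 µM, 24 h), -0.22 to 0.0875 for miR-93-5p and -0.0237 to 0.27 for miR-25-3p (50 µM, 24 h). At 48 h they were -0.28 to 0.22 for miR-25-3p (10 µM), -0.25 to 0.0237 for miR-106b-5p and -0.12 to 0.13 for miR-25-3p (50 µM), and between doses -0.0802 to 0.58, -0.0277 to 0.63 and -0.21 to 0.29. By value-table names they were -0.74 to -0.46 and -0.87 to -0.62 for the miR-17-seed members against DMSO, and -0.87 to -0.61 and -0.96 to -0.70 against 10 µM. For pairs they were -0.27 to -0.0949 for miR-106b-5p minus miR-93-5p (24 h), and 0.13 to 0.21 (24 h) and 0.29 to 0.40 (48 h) for miR-25-3p minus miR-93-5p.

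Counts of called miRNAs over all settings were 0 to 5 at 24 h, 1 to 55 at 48 h, 0 to 10 for time in DMSO, 0 to 2 for time in CsA and 0 for the difference of CsA effects. By dose they were 0 to 1 and 0 to 11 at 24 h, 0 to 84 and 0 to 109 at 48 h, and 0 to 82 between doses. By value-table names they were 74 to 170 and 41 to 108.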
